A study of Mus musculus with 6 samples.

Results

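Connexins are the channel proteins of gap junctions, and the genes described here are 4 members of that family that are known from the epidermis: Gja1, Gjb2, Gjb5 and Gjb6. Members were taken by gene symbol from the annotation of the array platform, and every probe carrying one of these symbols was used. That gave 4 of 46116 probes, covering 3 of the 4 genes: 1 probe for Gja1, 2 for Gjb2 and 1 for Gjb5. No probe is named for Gjb6 in the annotation used here, so the expression of that gene was not analysed and only its upstream sequence was.

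The arrays measured RNA of skin papillomas, benign epidermal tumours, raised with 1 application of the mutagen DMBA and then 30 weeks of the tumour promoter TPA. The mice were of mixed FVB and C57bl6 background and about 9 months old when they carried the papillomas. Papilloma RNA of 2 wild-type mice formed 1 pool and that of 3 Atf2 knockout mice formed the other, and each pool was run on 3 Illumina bead arrays. Both groups therefore share the carcinogen, the promoter and a mixed strain background. By label they differ in the genotype of Atf2, a transcription factor gene of the ATF and CREB family. The labels do not say in which cells Atf2 was lost. The pools also hold different mice, and their strain alleles, not measured here, cannot be told apart from genotype. Within a pool the 3 arrays repeat 1 RNA mixture as technical replicates, so every SD, interval and p-value below measures the spread between arrays, and each test compares 2 RNA pools, not 2 genotypes. Of 4 probes named for Atf2, 3 were at background on all arrays. The other (2260348) read 184.5, 176.2 and 186.3 in the wild-type pool and 171, 133.2 and 103 in the knockout pool, a log2 difference of -0.28, knockout minus wild type (limma adjusted p = 0.109). Whether that probe targets the stretch removed by the knockout is unknown here, so it does not check the labels. All 6 arrays shared a chip, with the pools in separate blocks of 3 positions, so position and genotype cannot be told apart.

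A gap junction forms where a ring of connexin proteins in one cell docks with a ring in its neighbour, which opens a pore for ions and small metabolites between both cells. Keratinocytes use several connexins, each with its own place in the layers of the epidermis. Gja1 encodes Cx43, the most widespread connexin of the epidermis, which is also made by fibroblasts, endothelium and smooth muscle. Gjb2 encodes Cx26, which is scarce in resting skin between the hair follicles and abundant in wounded, hyperproliferative or TPA-treated epidermis. Gjb5 encodes Cx31.1 of the differentiating layers, and Gjb6 encodes Cx30. In humans, variants of GJB2 are known for deafness with thickened skin, and variants of GJB6 for a skin, hair and nail disorder.

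The deleted factor binds the cAMP response element and, with Jun proteins, related sites, so the stretches just upstream of the genes are shown for Gja1 and Gjb2, the members measured above background. Each is the 250 bases before the RefSeq transcription start, read in the direction of the gene, on build GRCm38.p6. The Gja1 stretch is chr10:56377050-56377299 on the plus strand and the Gjb2 stretch is chr14:57104703-57104952 on the minus strand. Capitals mark 3 kinds of match on either strand: the cAMP response element half-site TGACG, the AP-1 site TGANTCA and the GC box GGGCGG.
Gja1: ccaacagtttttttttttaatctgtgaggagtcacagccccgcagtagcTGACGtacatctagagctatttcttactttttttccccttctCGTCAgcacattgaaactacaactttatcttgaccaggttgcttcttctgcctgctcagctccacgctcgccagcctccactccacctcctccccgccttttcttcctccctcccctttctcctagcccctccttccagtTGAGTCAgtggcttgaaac
Gjb2: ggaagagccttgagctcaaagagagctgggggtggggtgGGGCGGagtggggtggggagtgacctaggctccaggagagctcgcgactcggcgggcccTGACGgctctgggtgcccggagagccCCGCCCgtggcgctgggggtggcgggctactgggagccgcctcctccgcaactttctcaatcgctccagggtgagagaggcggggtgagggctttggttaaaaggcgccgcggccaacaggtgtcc

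The full element TGACGTCA was in none of the 4 members' stretches, and 1.55% of the 32851 promoters in the table hold it. The Gja1 stretch holds the half-site at 2 places, starting 201 and 159 bases before the transcription start, the latter on the opposite strand. It also holds 1 AP-1 match, TGAGTCA, which starts 19 bases before the transcription start. The Gjb2 stretch holds 1 half-site, starting 152 bases before the transcription start, 0 AP-1 matches and 2 GC boxes. Of all promoters, 17.8% hold the half-site, 6.75% the AP-1 site and 32.7% the GC box. The half-site lies within the full element, so those shares overlap. Gjb5 and Gjb6 held 0 matches of any of these motifs. The stretches also differ in base composition, at 69.2% G and C for Gjb2 and 50% for Gja1 against a median of 52.4% over all promoters. These are letter matches in a short window and do not show binding.

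Gja1 gave one of the brighter signals of the arrays in both pools, above 99.6% of all probes in the wild-type pool and 99.7% in the knockout pool. Its probe (5220731) read a raw intensity of 15306.3, 16372.9 and 15882.1 on wild-type arrays 1, 2 and 3. On knockout arrays 1, 2 and 3 it read 17739.6, 16641.8 and 13279. The wild-type values lay inside the range of the knockout values, and knockout array 3, the lowest of the 6, was also the array with the lowest median raw intensity over all probes (109.9, against 124.5 to 148.2 on the others). The means were 15850 ± 534 (SD, n = 3 arrays) in the wild-type pool and 15890 ± 2320 (SD, n = 3) in the knockout pool.

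After background correction and quantile normalization, the Gja1 values on the log2 scale were 13.83, 13.92 and 13.94 in the wild-type pool and 14.03, 14.02 and 13.96 in the knockout pool. On this scale the knockout arrays all lay above the wild-type arrays, by a margin that limma did not call. The difference, knockout minus wild type as in all signed values here, was 0.11 in log2 units (SE 0.07, 95% interval -0.05 to 0.27, limma adjusted p = 0.289). That interval lies within a 2-fold limit in either direction. Non-overlap of the arrays was common, with 27.8% of the 23058 tested probes having every knockout array above every wild-type array. In the authors' deposited log2 values the Gja1 difference was likewise 0.11.

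Gjb2 was lower in the knockout pool on both of its probes, but by very different amounts. The brighter probe (5900609) gave raw intensities of 15766.2, 15904.4 and 14937 for the wild-type pool. It read 9917.5, 11577.4 and 8596.6 on the knockout arrays. Every knockout array lay below every wild-type array, as for 20.6% of all tested probes, and the means were 15540 ± 523 (SD, n = 3) and 10030 ± 1490 (SD, n = 3). In a bulk sample such as this, fewer cells that make a transcript and less of it per cell cannot be told apart.

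The brighter Gjb2 probe differed by -0.51 in log2 units (SE 0.08, 95% interval -0.69 to -0.33, limma adjusted p = 0.000394), a 1.42-fold higher level in the wild-type pool. It passed the adjusted p of 0.05 and did not reach the 2-fold limit, and a call here requires both. An adjusted p below 0.05 with a lower value in the knockout pool was found for 17.6% of all tested probes, and 10.0% of them had a lower difference than this probe. In the authors' deposited log2 values the 3 wild-type arrays stood at 13.88, 13.88 and 13.84 and the knockout arrays at 13.22, 13.5 and 13.35, a difference of -0.51.

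The dimmer Gjb2 probe (6200487) fell from a clear signal to background. Its wild-type readings were 1137.3, 971.2 and 1167.3, all above background. On the knockout arrays its readings were 158.2, 130 and 135, of which none exceeded the background limit of its array (167.5, 154.9 and 140.8). A probe counted as above background when it exceeded the mode of its array's raw intensities by 3 SDs.

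Because the knockout arrays give only an upper bound there, the probe was at least 7.23-fold lower in the knockout pool (limma adjusted p = 2.83e-09), with normalized means of 9.92 ± 0.19 and 6.88 ± 0.17 on the log2 scale (SD, n = 3 each). The fitted difference was -3.04 (SE 0.11), and its size depends on how background is handled, since the knockout arrays read background. It ran from -4.14 to -2.56 over other ways of processing, so the 7.23-fold bound holds only for the normalization used here. This was the 1 member probe past the threshold, of 3 tested, where 3.9% of all tested probes passed it with a lower value in the knockout pool. The wider frame is 5.31%: that share of the tested probes exceeded background on each wild-type array but on none of the knockout pool. The authors' deposited values were 10.07, 9.8 and 10.13 in the wild-type pool and 7.46, 7.31 and 7.53 in the knockout pool, a difference of -2.56.

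**Figure D1:**
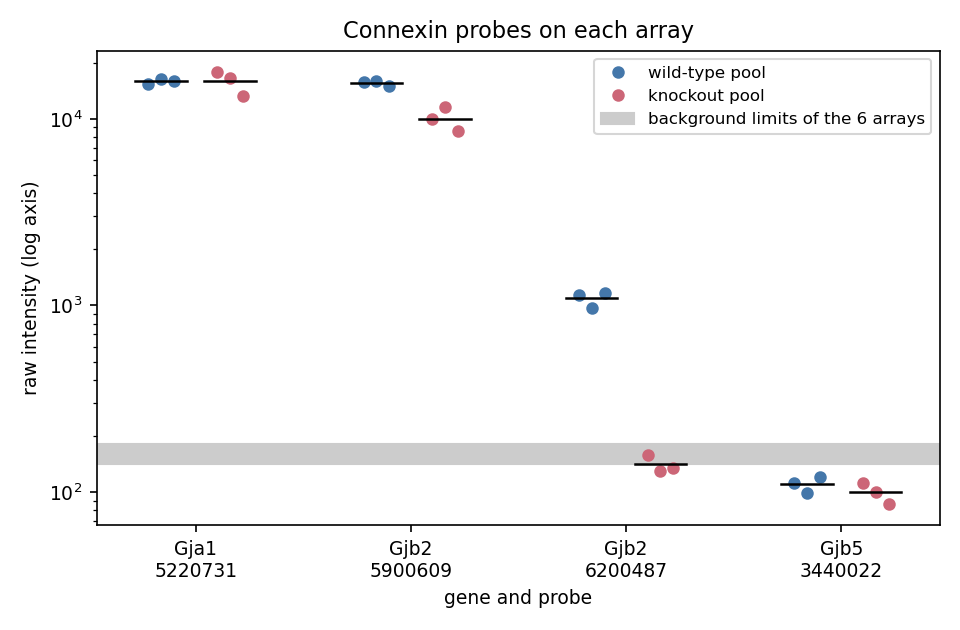
Raw intensity (log axis) of each connexin probe on each of the 6 arrays; points are arrays, black lines are the means of 3 arrays and the grey band spans the background limits of the arrays. Gja1 stands near 15850 in both pools, the brighter Gjb2 probe at 15540 and 10030, the dimmer one drops from 1092 into the background, and Gjb5 lies under the band in both pools.

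Both Gjb2 probes carry the same RefSeq transcript accession in the annotation, and their sequences and positions in the transcript were not used here. The gap between them changed between pools: dimmer minus brighter was -3.88, -4.16 and -3.78 in the wild-type pool, array by array, and -6.30, -6.80 and -6.33 in the knockout pool. The pools differed in this gap by -2.53 on the log2 scale, with no overlap. As the dimmer probe read background in the knockout pool, that size is not fixed, and it ran from -3.63 to -2.06 over other ways of processing. An exact two-sided permutation test gave p = 0.1, the smallest that 3 against 3 arrays allow, so this design cannot reach 0.05 for a single value. The pair was chosen after its values had been seen.

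Both probes of Gjb2 were lower in the knockout pool with an adjusted p below 0.05, which held for all such probes in 269 (12.9%) of the 2078 genes with at least 2 tested probes detected in the whole wild-type pool. The probes thus shared a direction and not a size, and how much total Gjb2 RNA differed is not fixed by these arrays. Of those 2078 genes, 1640 had exactly 2 such probes. In 14 (0.854%) of the 1640 the changes of both probes lay further apart than the 2.53 of Gjb2. The median distance was 0.45 on the log2 scale.

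Gja1 and Gjb2 were compared directly through the brighter Gjb2 probe. On the wild-type arrays, Gjb2 minus Gja1 was 0.04, -0.05 and -0.10 on the log2 scale, and on the knockout arrays it was -0.82, -0.53 and -0.62. The arrays of the pools did not overlap, and the change in this gap was -0.62 (exact two-sided permutation p = 0.1, again the smallest this design allows). It was the 1 pair of members with tested probes, so the p is the same after adjustment. A change in such a gap can come from either probe, and here the Gjb2 probe differed by -0.51 and Gja1 by 0.11.

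Gjb5 was not detected. For its probe (3440022) the wild-type readings were 112.1, 98.5 and 120.7, and the knockout readings were 111.8, 100.7 and 86.7. None of these 6 values was above background, the pools overlapped, and the probe fell under the signal limit for testing. In the authors' deposited values it stood at 6.94 and 6.99 on average. A reading at background on 1 probe does not show that the transcript was absent.

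**Figure D2:**
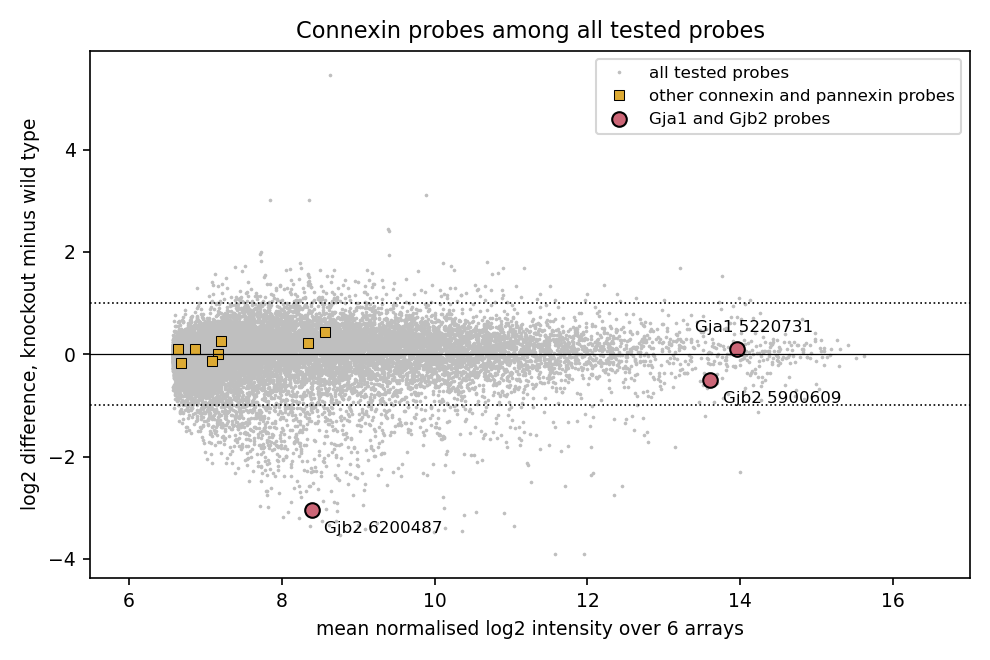
Each tested probe by its mean normalised log2 intensity (x) and its log2 difference, knockout minus wild type (y); dotted lines mark the 2-fold limits. Gja1 and the brighter Gjb2 probe sit among the brightest probes at 0.11 and -0.51, the dimmer Gjb2 probe sits at -3.04, and the other connexin and pannexin probes (squares) lie between -0.17 and 0.44.

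The rest of the gap junction channel family was dim and stayed within 2-fold. Of 19 other connexin and pannexin genes, 13 had a probe and 7 were tested. Of those 7, 0 passed the threshold, where 3.6% of the 12096 tested genes did, and their median difference was 0.10 against 0.08 over all tested genes. At an unadjusted limma p below 0.05, with no fold limit, 3 were higher and 0 lower, where 29.7% of all tested genes were higher and 18.1% lower. At an adjusted p below 0.05, 2 were higher, Panx1 and Gjb1, and 0 lower. Not above background on any array with any probe were 8 of the 13, among them Gja3 and Gjd2.

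Panx1 was the brightest of the other family members. It encodes a pannexin, which forms release channels in the membrane and does not usually join cells. Its brighter probe read 389.1, 416.2 and 414.5 in the wild-type pool and 521.1, 438.3 and 343.5 in the knockout pool. The raw values overlapped, while the normalised ones did not, and the log2 difference was 0.44 (SE 0.09, limma adjusted p = 0.00146). Its other probe was at background.

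Gjb1, the liver-type connexin, read 170 to 200.4 in the wild-type pool and 152.7 to 200.6 in the knockout pool, with a difference of 0.26 (limma adjusted p = 0.0317). That p was 0.0618 with no filter on dim probes, 0.141 and 0.0974 without wild-type array 2 or 3, and 0.089 and 0.0609 without knockout array 1 or 2. The vascular connexin Gja4 was at 0.22 (adjusted p = 0.069), with mean raw intensities of 383.1 (wild-type pool) and 344.7 (knockout pool). Gja5, another vascular connexin, was at 0.01 on its brightest probe and was detected on 3 wild-type arrays and 2 knockout arrays; its sign turned when single arrays were left out. Gjc1, which encodes a connexin of heart and vessel muscle, was at -0.13 (adjusted p = 0.264) and above background on 1 knockout array. All of these lay close to background, where the offset added before taking logarithms shrinks differences.

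In the RefSeq gene order, Gjb2 lies between Gja3 and Gjb6, and Cryl1, which encodes lambda-crystallin, follows Gjb6. Gja3 was at background on all 6 arrays. The brighter Cryl1 probe was higher in the knockout pool, at 0.54 on the log2 scale (limma adjusted p = 0.000251), and so pointed the other way within the 2-fold limit.

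Partners and regulators of connexins moved in both directions, and 2 passed the threshold on the probe with the highest signal. Of 28 listed genes, 23 had a probe and 20 were tested; 0 rose, 2 fell and 18 did not pass, where 2.48% of all tested genes passed with a lower value. The list's median was -0.01 against 0.08 over all tested genes. With the adjusted p alone, 3 were higher and 8 lower, where 24.3% of all tested genes were higher and 15.7% lower.

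Cav2, which encodes the caveolar coat protein caveolin-2, read 532.6, 528.5 and 550.3 in the wild-type pool and 162, 159.1 and 138.3 in the knockout pool. The pools did not overlap, and the gene fell by 1.76 (log2, SE 0.08, limma adjusted p = 1.46e-08), with 1 knockout array above background. The size of that difference depends on how background is handled, and it ran from -2.86 to -1.43 over other ways of processing. The other Cav2 probe was at background on all arrays. Cav1, the partner of Cav2 in caveolae and a binding protein of Cx43, was at -0.66 (adjusted p = 0.00105), from a mean of 4114 to 2331.

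Prkch encodes protein kinase C eta, an isoform of differentiating keratinocytes, and protein kinase C phosphorylates Cx43. It read 413.8, 405.5 and 414.7 in the wild-type pool and 190.9, 197.7 and 144.2 in the knockout pool. The pools did not overlap, and the gene fell by 1.04 (SE 0.10, adjusted p = 4.63e-06), just past the 2-fold limit. It was inside that limit with the authors' values (-0.83), without background correction (-0.90), with an offset of 100 (-0.85) and without knockout array 3 (-0.98).

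Tjp1, which encodes the scaffold protein ZO-1 that binds the tail of Cx43, was at -0.73 (limma adjusted p = 0.00016), from wild-type readings of 1560.9, 1748.3 and 1264.8 to knockout readings of 856, 864.7 and 668.2. Its relative Tjp3 was at 0.74 (adjusted p = 1.43e-05) on its brighter probe and at 0.09 on the other. Erp29, an endoplasmic reticulum protein that aids Cx43 assembly, was at 0.50 (adjusted p = 0.00043), and Ubqln4, which binds Cx43 on its way to degradation, at 0.67 (adjusted p = 4.09e-05). None of these reached the 2-fold limit. They were chosen, like Cav1, after their values had been seen.

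As with Gjb2, the probes of Csnk1d disagreed. Csnk1d encodes casein kinase 1 delta, which phosphorylates Cx43. Its brighter probes were at 0.09 and 0.10. A dimmer one, with a wild-type mean of 552.9, did not exceed background in the knockout pool. That places it at least 3.46-fold lower by the normalization used here (limma adjusted p = 2.17e-08). Its fitted difference, -2.06, ran from -2.92 to -1.64 over other ways of processing. This gene was also chosen after its values had been seen.

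**Figure D3:**
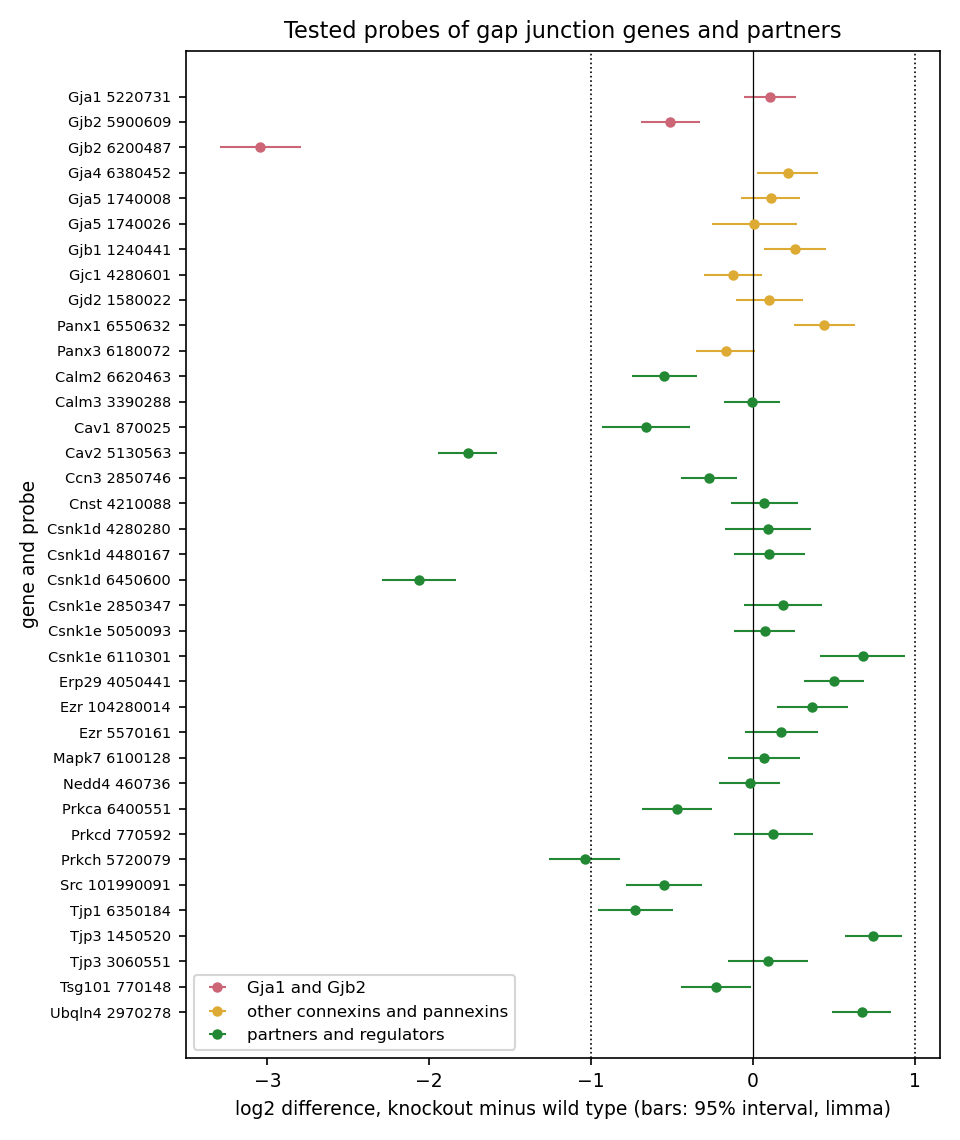
Log2 difference, knockout minus wild type, of every tested probe of Gja1 and Gjb2, of the other connexins and pannexins, and of the partners and regulators; bars are 95% intervals from limma over 3 arrays per pool and dotted lines mark the 2-fold limits. The dimmer Gjb2 probe, Cav2, Prkch and 1 of 3 Csnk1d probes lie past the lower limit, and no probe lies past the upper one.

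Markers of the cells that make these connexins were measured beside them. Keratinocyte markers were present, and all 20 of those with a probe were above background on at least 1 array. Raw sums over a list, given below, are not normalised, and the knockout arrays were dimmer over all probes, with medians of 109.9 to 135.5 against 135.8 to 148.2.

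Activated keratinocytes are the setting in which Cx26 is abundant. Of 7 of their markers tested, 0 passed the threshold on the brightest probe (limma), where 3.6% of all tested genes did. The list's median was -0.13, with 3 of the 7 above 0 and the highest at 0.08. At an unadjusted p below 0.05, 0 were higher and 3 lower: Krt6a (-0.58), Krt6b (-0.68) and Krt17 (-0.45). Of all tested genes, 29.7% were higher and 18.1% lower at that p. Over all 10 probes of the list, 2 fell and 0 rose, where 3.9% of all tested probes fell. Both were further probes of Krt6a, at -3.90 each, and Krt6a has the close relative Krt6b, so signals of these genes may be shared. The summed raw intensity of this list was 223100 to 228100 on the wild-type arrays and 149000 to 183200 on the knockout arrays. Its part in the lower Gjb2 signal was not tested.

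Basal markers had a median of 0.18 over 8 tested genes. On the brightest probe 1 gene rose, Krt15 (3.12), and 0 fell, where 1.12% of all tested genes rose. The 8 genes ranged from -0.89 to 3.12, with 3 of them below 0. At an unadjusted limma p below 0.05, 4 were higher and 1 lower, where 29.7% of all tested genes were higher and 18.1% lower. Over the 19 tested probes of the list, 3 rose and 1 fell, where 0.984% of all tested probes rose. The further risers were probes of Itga6 (1.69 and 1.81), whose brightest probe was at 0.24, and the probe that fell was of Col17a1 (-1.18), whose brightest probe was at -0.03. Summed raw intensity was 75740 to 77330 for the wild-type pool and 66460 to 78830 for the other. Spinous markers had a median of 0.14 over 5 tested genes with 1 rise, Krt10 (1.52), and 0 falls, and their sums were 43230 to 45010 and 55350 to 62490.

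Fibroblasts and vessel cells also make Cx43. Of 8 fibroblast markers tested, 3 fell (Lum, Col1a1 and Col3a1) and 0 rose, where 2.48% of all tested genes fell, and the median was -0.56. Their raw intensities summed to 9021 to 10090 for the wild-type pool and to 3998 to 5465 for the other, and Mfap5 was not above background on any array. Gja1 stood at 0.11 beside the lower fibroblast signals, whose part in its level was not tested.

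Endothelial markers had a median of -0.05 over 6 tested genes, with 0 past the threshold on any probe. At an unadjusted limma p below 0.05, 1 was higher and 2 lower, where 29.7% of all tested genes were higher and 18.1% lower. Endothelial sums were 2624 to 2724 and 1622 to 2222, with Kdr and Tek not above background. Smooth muscle and pericyte markers had a median of -0.12 over 5 tested genes, with 0 past the threshold on the brightest probe and 1 higher and 1 lower at an unadjusted p below 0.05. Over their 9 tested probes, 2 fell, of Acta2 (at least 1.63-fold) and Rgs5 (at least 1.67-fold), where 3.9% of all tested probes fell. The brightest probes of these genes were at -0.52 and 0.67. The list's sums were 4373 to 4462 and 2523 to 3527, with Tagln and Cnn1 not above background.

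Markers of other cells that a papilloma sample can hold were lower in part. Over all tested genes, 2.48% fell and 4580 of 12096 were below 0. Of 5 sebaceous and hair follicle markers tested, 1 fell, Krt79 (-1.21), and all 5 were below 0, with a median of -0.43 and sums of 6270 to 6290 and 3135 to 4244. Lgr5, Lhx2 and Krt71 were not above background. Of 5 skeletal muscle markers tested, 2 fell, Acta1 (-1.09) and Myl1 (at least 1.43-fold), and all 5 were below 0, with a median of -0.59 and sums of 2519 to 2687 and 887.8 to 1504. Of 4 macrophage markers tested, 1 fell, Lyz2 (-1.40), with a median of -0.11 and sums of 2252 to 2382 and 1294 to 1856, and Itgam was not above background. The part of these cells in the connexin signals was not tested.

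Likeness of pattern was taken as the root mean square distance between log2 values over the 6 arrays, each gene centred on its own mean, among 11814 other genes. For Gja1 the nearest were Tmem120b (0.018) and Tmbim4 (0.020), and for the brighter Gjb2 probe H2-T22 (0.021) and Snapc1 (0.030). Tmem120b was above background on 0 arrays, and H2-T22 on 3 wild-type and 0 knockout arrays. Tmbim4 and Snapc1 were above background on every array. A distance below 0.1 was reached by 2301 genes for Gja1 and by 197 for Gjb2. With 2 pools, such closeness says little more than that these genes had similar differences between the pools.

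The difference of every tested member probe was recomputed under other ways of processing and with each array left out. Gja1 ran from 0.07 to 0.25, the brighter Gjb2 probe from -0.58 to -0.39 and the dimmer one from -4.14 to -2.56, each on the same side of 0 and of the threshold as reported wherever it was tested. The dimmer probe was not tested among probes above background on all 6 arrays. Scaling each array to its 75th percentile gave the highest Gja1 value, 0.25 (limma adjusted p = 0.0403), and it also moved the median of all probes from 0.03 to 0.18.

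**Figure D4:**
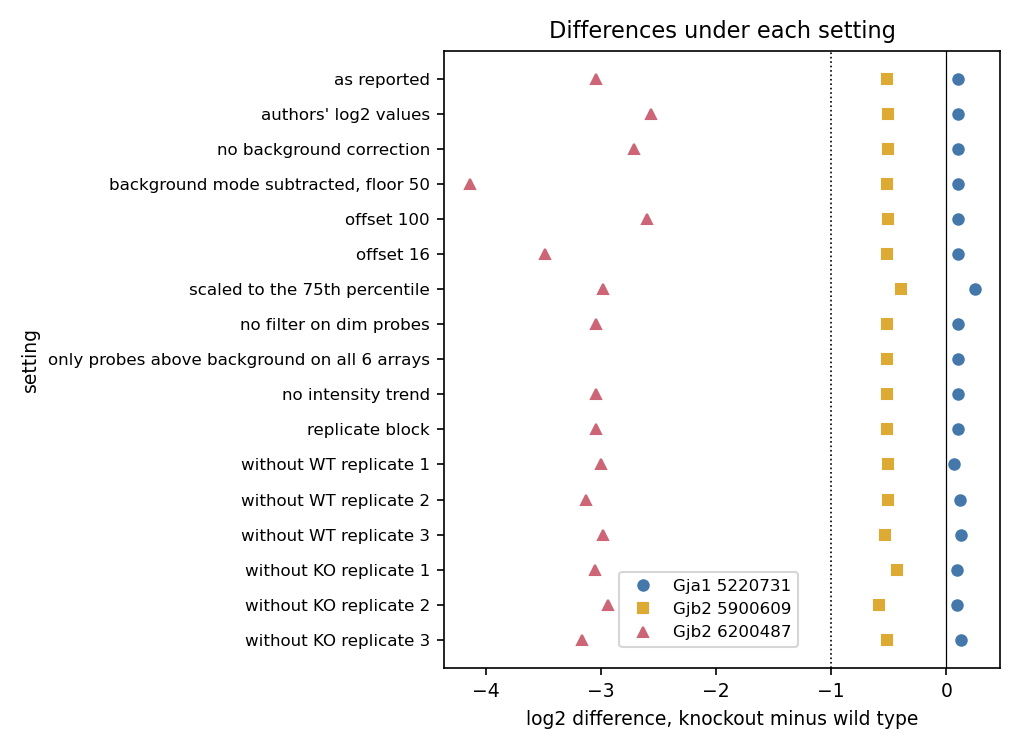
Log2 difference, knockout minus wild type, of the 3 tested member probes under each way of processing and with each array left out; the dotted line marks the lower 2-fold limit. Gja1 stays between 0.07 and 0.25, the brighter Gjb2 probe between -0.58 and -0.39 and the dimmer one between -4.14 and -2.56.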

How the data were processed

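Each array came as a file of raw intensities, linear and without detection p, per the file headers. A second deposited table gives log2 values by the authors, whose 6 columns share 1 distribution (median 7.25 in each). Each column keeps the order of that array's raw values, so its scale and direction are settled; its background handling is not stated in the labels or headers. The submitters' processing notes name BeadStudio 3.

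Raw intensities were background-corrected with normexp (offset 50), converted to log2 and quantile-normalized (R 4.3.3, limma 3.58.1). Of 46116 probes, the 23058 with a mean log2 intensity above the median were tested with limma (lmFit, eBayes with an intensity trend), two-sided, with Benjamini-Hochberg adjustment over all of them. The threshold was an adjusted p under 0.05 and at least 2-fold. The test was checked on simulated arrays. Their noise was independent between arrays, with none from mice or chip position, so that check does not bear on a comparison of genotypes. A probe detected on no array of one pool got a bound only: on each such array its value, or the lowest normalized value of any detected probe there if that was higher, was averaged and set against the mean of the brighter pool. Such a bound holds for this normalization only.

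Symbols come from the platform annotation at GEO (29534 probes with 1 symbol, 11 with several, 16571 with none or not listed); a look-up of Entrez identifiers in RefSeq (GRCm38.p6) changed 0. The brightest tested probe stood for a gene. Named are every member probe, other connexins and pannexins detected on all arrays of a pool, partners past the threshold and the 2 genes nearest to each member in pattern; exceptions are stated. Promoter sequences are RefSeq's, and all 4 members matched. The members and lists were chosen with earlier results of these data known. The number of arrays limits the precision.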

Additional observations from a re-analysis of the deposited data

How the results depend on the processing

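The 3 tested member probes kept their direction and their side of the threshold under every alternative in which they were tested. The call of the dimmer Gjb2 probe was not available among probes above background on all 6 arrays, which leaves that probe out by construction: 0 connexin genes were then past the threshold on any probe (limma), where 1 was otherwise, and the lower probes numbered 450 in place of 899. The count of higher probes, 227, was 137 with the authors' values, 142 with an offset of 100, 389 with an offset of 16 and 735 after subtracting the background mode with a floor of 50; the cause was not tested. Gja5, at 0.01, ran from -0.0881 to 0.175 when each array was left out, below 0 without wild-type array 1 or 2 or knockout array 1 or 2. The gap between the Gjb2 probes ran from -3.63 to -2.06 and that between Gjb2 and Gja1 from -0.64 to -0.61 over the other ways of processing. For these gaps, the 2 offsets and the pair of Gjb2 probes were added after seeing the data; for the single probes and counts the offsets were planned. With the replicate number of the titles as a block, Gja1 was at 0.11, the Gjb2 probes at -0.51 and -3.04, and 901 probes were lower and 227 higher. The deviations of arrays with the same number correlated at 0.106, -0.13 and 0.0434, so the numbers do not pair the arrays. Dim probes are limited by their closeness to background, and 28.1% to 33.3% of probes per array were above it.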
